A study of Mus musculus with 2 samples.

Results

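IgD-positive mature B cells were cells of a sorted intestinal immune suspension whose own transcript counts carried the signature of a B cell and at least 1 transcript of the IgD heavy chain. The suspension came from mice exposed to 10 Gy of X-rays and was read in 2 droplet single-cell RNA libraries, 1 from WT mice and 1 from Dpf2 KO mice, both of live immune cells. Both groups were irradiated, so the series holds no unirradiated control. The sort was gated on whether cells carried GFP or tdTomato. The labels do not say which animals carried these reporters, nor the time after irradiation, the number and sex of the mice, the deleted part of Dpf2 or the cells in which it was deleted. A barcode was a member if it held at least 4 UMIs (unique molecular identifiers, each standing for 1 captured transcript) over Ebf1, Pax5, Ms4a1 and Bank1, at least 1 UMI of Ighd, no UMI of Cd3e, Cd3d or Cd3g, at most 1 of Lyz2 and at most 4 over Mzb1, Derl3 and Txndc5. The rule gave 1628 members among 19577 kept cells, 449 of 10896 in WT and 1179 of 8681 in KO.

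Mature naive B cells carry IgM and IgD on their surface, made from the same variable region by alternative splicing of 1 long heavy chain transcript, and IgD is lost when a cell switches class or becomes a plasma cell. In the intestine such cells sit mainly in the follicles of Peyer's patches and isolated lymphoid tissue, where signals through the antigen receptor, BAFF receptor and CD40 decide whether they live, rest or enter a germinal centre. Resting B cells are among the most radiation-sensitive cells of the body, and p53 and the BCL2 family set much of that sensitivity. Dpf2 encodes a subunit of the BAF complex, which moves nucleosomes and opens chromatin.

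Members held 1857948 UMIs in WT and 5521684 in KO, with medians of 3670 and 3827 UMIs and 1714 and 1748 genes per cell. Levels below are UMIs summed over the members of a library per 1000000 of their UMIs. Log2 ratios compare KO with WT, with 10 per 1000000 added to each level first. A fold is taken without that addition. Numbers in brackets after a level, share or fold are exact 95% intervals, which cover counting error only. Each genotype has 1 library, so no difference has a replicate check and no test was run. Of all barcodes, 24 occurred in both libraries, and 2 of them were KO members and none WT members. Transcripts of both sexes were present in each library: 119 WT members had Xist and no Y-linked UMI and 158 the reverse, against 301 and 346 in KO.

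The values that chose the members are given as a description. IgD transcripts were sparse, and 61.0% of WT members and 59.8% of KO members held exactly 1 Ighd UMI. The level of Ighd was 386 in WT (359 to 416) and 352 in KO (337 to 368). The sum over Ebf1, Pax5, Ms4a1 and Bank1 had a median of 30 UMIs in WT and 29 in KO, so the limit of 4 was far below most members. Just inside it, 2 WT and 7 KO members had a sum of exactly 4, and just outside, 2 cells in each library had a sum of 3 and met every other limit. Pax5, the transcription factor that holds B cell identity, was at 426 in WT and 417 in KO. Ms4a1, which encodes the surface protein CD20, was at 423 in WT and 276 in KO, and Bank1, a scaffold of antigen receptor signalling, at 1041 in WT and 629.5 in KO. All 5 marker genes were thus present in both libraries, Cr2 included, which the rule did not use. In T cells, defined by at least 2 UMIs of Cd3e, Cd3d and Cd3g and none of the 4 B cell genes, Ighd was at 1.82 in WT and 4.98 in KO. Unlike the members, T cells had no limit on Lyz2 or on Mzb1, Derl3 and Txndc5.

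IgD-positive B cells made up 4.12% of kept WT cells (3.76 to 4.51) and 13.6% of kept KO cells (12.9 to 14.3), a share 3.30 times as high in KO (2.95 to 3.68). B cells without an Ighd UMI, chosen by the same rule otherwise, were 6.35% of WT cells and 18.4% of KO cells, a ratio of 2.89 (2.65 to 3.17). Among all B cells by this rule, 39.4% (36.5 to 42.3) were IgD-positive in WT and 42.5% (40.6 to 44.4) in KO. The ratio of these shares, 1.08, had an interval of 0.968 to 1.21. B cells with and without an Ighd UMI both held a larger share of the KO suspension. These are shares of what the GFP and tdTomato gates passed, and the part of the sort in them was not tested. A higher share of B cells and a lower share of other cells cannot be told apart.

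**Figure D1:**
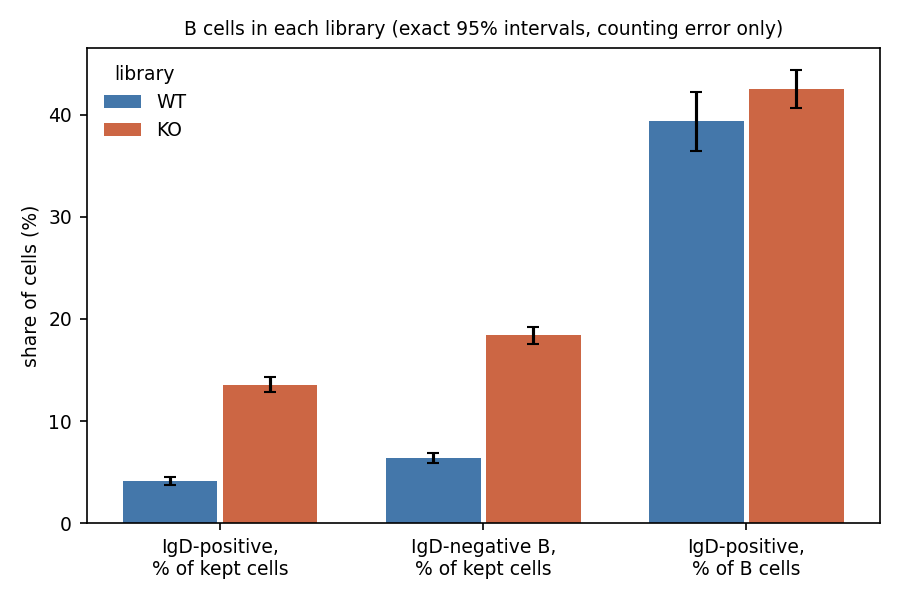
Shares of cells (y axis, percent) in the WT and KO libraries, with exact 95% intervals as error bars. IgD-positive cells are 4.12% of kept WT cells and 13.6% of kept KO cells, while their share of B cells is 39.4% and 42.5%.

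Some members also held transcripts of other cell types, and they are described before the gene values. At least 3 UMIs of the dendritic cell markers Flt3, Itgax, Zbtb46, Xcr1, Clec9a, Cd209a, Sirpa and Fscn1 were found in 4 WT and 38 KO members, and the 38 had a median of 10717 UMIs. At least 3 UMIs of 9 neutrophil markers were found in 8 WT and 42 KO members, and at least 3 UMIs of the stromal genes Dcn, Col3a1, Col1a1, Col1a2, Lum and Pdgfra in 3 WT and 2 KO members. A single WT member held 322 stromal UMIs. Scrublet, a doublet caller, marked 10 WT members (2.23%) and 52 KO members (4.41%), and all were kept because they met the rule. Leaving out every member with at least 3 UMIs of any of these 3 marker groups gave 435 WT and 1114 KO cells, called the reduced set here. This set was chosen after the data had been seen, and its values stand beside those of the members.

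Dpf2 itself (chromosome 19, 5896516 to 5913010, build GRCm38, GENCODE M21) was at 40.9 in WT (32.2 to 51.2) and 26.6 in KO (22.5 to 31.3). This was 1.54-fold lower in KO (1.15 to 2.04), and its log2 ratio of -0.48 did not reach the 1.5-fold size used below. In members with Y-linked and no Xist UMIs the KO level was 0.894 of the WT level, against 0.651 over all members. Since the deleted part is not given, counts from the rest of the transcript cannot check the label. Of the other BAF subunits, none reached that size. Among 24 of 28 subunits that passed the filter, the median log2 ratio was 0.09, close to the median of 0.05 over all genes that passed it. Smarcc1, a core scaffold subunit, had the highest log2 ratio, 0.58.

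A gene passed the filter if the members of the 2 libraries held 100 or more of its UMIs together and if 5% or more of the members of 1 library held one, which left 6766 genes. Of these, 170 (2.51%) were at least 1.5-fold higher in KO and 142 (2.10%) at least 1.5-fold lower after adding 10 per 1000000. Only 14 and 7 were past 2-fold. In the reduced set 121 of the 170 higher genes and 125 of the 142 lower genes were still past 1.5-fold. Both sets of genes are described by size alone. The shares of 2.51% and 2.10% are the background for the counts in each gene list below.

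Ly6d, a GPI-anchored surface protein that marks early commitment to the B lineage, was the gene furthest below WT among the 15 lowest. It lies on chromosome 15, 74762056 to 74763620, and its level was 334 in WT (308 to 362) and 108 in KO (99.1 to 117), 3.11-fold lower in KO (2.77 to 3.48). Ly6d was at 319 in WT and 111 in KO in the reduced set, and its log2 ratio was -1.44, against -1.55 over all members. The Ly6d level of T cells was 55.4 in WT and 6.23 in KO, also lower in KO. Vpreb3, a partner of immunoglobulin chains in the endoplasmic reticulum of B cells, was at 149 in WT (132 to 168) and 73.2 in KO (66.2 to 80.7). Stap1, an adaptor in antigen receptor signalling, was 1.95-fold lower in KO (1.75 to 2.17), and H2-DMb2, a chain of the peptide exchange factor of class II presentation, 1.92-fold lower in KO (1.7 to 2.16). Cd52, a small GPI-anchored glycoprotein of lymphocytes, was at 487 in WT (456 to 519.9) and 249.7 in KO (237 to 263). Dmxl1, a subunit of the complex that assembles the vacuolar proton pump, was at 2345 in WT (2275 to 2415) and 1259 in KO (1229 to 1289), 1.86-fold lower in KO (1.79 to 1.93). In T cells Dmxl1 had a log2 ratio of 0.40, in the other direction from -0.89 in the members, and the difference between the cell types was not tested.

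The other genes among the 15 lowest were Themis, Hist1h1c, Hist1h2bc, Ly6a, Sh2d2a, Ccl5, Arl15, Rab30 and Ptprcap, with log2 ratios from -1.15 for Themis to -0.90 for Ptprcap. Hist1h1c, a linker histone, was at 147 in WT (131 to 166) and 66.6 in KO (60.0 to 73.8), and Hist1h2bc, a core histone, at 40.4 in WT (31.8 to 50.6) and 15.2 in KO (12.1 to 18.8). Ly6a, which encodes the interferon-inducible surface protein Sca-1, was at 90.4 in WT and 40.6 in KO. Themis is known from T cell development, and a single WT cell held 45.9% of its WT UMIs. A single cell also held 32.5% of the WT UMIs of Ccl5, a chemokine of T and NK cells. Without the highest cell of each library Ccl5 was at a log2 ratio of -0.56, short of 1.5-fold. In T cells Themis was at 981 in WT and 627 in KO, and Ccl5 at 1381 in WT and 704 in KO. Sh2d2a was at 31.8 in WT and 11.2 in KO in the members, and at 167 in WT and 116 in KO in T cells. For these 3 genes the T cell levels were above those of the members and lower in KO too. Their source in the members was not tested. All 15 genes were still past 1.5-fold in the reduced set, and 8 of the 15 were also in B cells that met the rule except for Ighd. Those short of it there included Themis at -0.45, Hist1h1c at -0.50, Stap1 at -0.52, Dmxl1 at -0.43 and H2-DMb2 at -0.37. In IgD-negative B cells of a stricter definition, chosen after the data had been seen, 14 of the 15 were past 1.5-fold, the exception being Sh2d2a at -0.22. In T cells 6 of the 15 were past 1.5-fold in the same direction, against 2 of the 15 highest genes. For T cells and IgD-negative cells the share of all genes past 1.5-fold is not given. The counts in those cells therefore have no background beside them.

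Markers of other cell types were also among the lowest genes. Dcn and Col3a1, matrix genes of fibroblasts, were at 99.6 in WT and 1.63 in KO and at 54.4 in WT and 3.08 in KO, and 1 WT cell held 77.8% and 77.2% of their WT UMIs. In the reduced set Dcn was at 21.1 in WT and 1.64 in KO. Jchain, the joining chain of secreted IgA, was 1.95-fold lower in KO (1.85 to 2.06), and Gzma, a granzyme of NK and T cells, 2.48-fold lower in KO (1.7 to 3.6). A single WT cell held 22.6% of the WT UMIs of Jchain. Without the highest cell of each library the log2 ratio of Jchain was -0.67, against -0.95 over all members. In T cells Jchain was at 2403 in WT and 987 in KO, above the level in the members in both libraries. The T cells had no limit on plasma cell genes, so these summed levels are not like for like.

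The 15 highest genes fell into those that kept their size in the reduced set and those that did not. Pbx3, a homeodomain partner of HOX proteins, was at 95.3 in WT (81.7 to 110.4) and 233 in KO (220.2 to 246), 2.44-fold higher in KO (2.09 to 2.87), and its log2 ratio was 1.21 over all members and 1.25 in the reduced set. Dnase1l3, a nuclease that digests chromatin released from dying cells, was 3.12-fold higher in KO (2.29 to 4.34), with log2 ratios of 1.32 and 1.37. Fhit, a dinucleoside triphosphate hydrolase, was at 33.4 in WT (25.6 to 42.8) and 86 in KO (78.5 to 94.1). Ahcyl2, a relative of S-adenosylhomocysteine hydrolase, was at 346 in WT (319 to 373) and 727 in KO (705 to 750.2), 2.1-fold higher in KO (1.94 to 2.29). Hspa1b, an inducible HSP70, was at 349 in WT (322 to 377) and 679 in KO (657 to 701). Bcorl1, a corepressor, was at 5.92 in WT and 21.6 in KO, and Wfdc17, a secreted protease inhibitor homologue of myeloid cells, at 14.5 in WT and 46.7 in KO. These 7 genes were past 1.5-fold in both sets of cells. In T cells, which had no limit on Lyz2, Wfdc17 was at 24.8 in WT and 56.7 in KO. Both levels were above those of the members, and the source of Wfdc17 in the members was not tested.

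Tbc1d4 had the highest log2 ratio of the 15, 1.78, with levels of 11.8 in WT (7.42 to 17.9) and 65 in KO (58.5 to 72.1). Tbc1d4 encodes a Rab GTPase-activating protein of glucose transporter traffic. The 38 KO members with dendritic cell markers held 76.9% of its KO UMIs, and in the reduced set its log2 ratio was 0.29. The same 38 cells held 58.1% of the KO UMIs of Cxcl16, a chemokine of dendritic cells and macrophages, 56.6% of those of Tmtc2, 51.5% of Ifi207 and 50.9% of Fmnl2. In the reduced set Cxcl16, Tmtc2 and Ifi207 were at 0.43, 0.20 and 0.26, Arl4c at 0.56 and Fmnl2 at 0.59. Tmem267 was at 49 in WT (39.4 to 60.1) and 145 in KO (135 to 155), with 45.4% of its KO UMIs in the 38 cells and a log2 ratio of 0.65 in the reduced set. Arhgap18 completed the 15 with 0.92, and 10 of the 15 were past 1.5-fold in the reduced set.

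Of the markers of other cell types, Defa24 and Defa30, antimicrobial defensins of Paneth cells, were higher in KO, with Defa24 at 1.61 in WT (0.333 to 4.72) and 84.9 in KO (77.4 to 93) and Defa30 at 1.08 in WT and 40.6 in KO. In T cells Defa24 was at 2.76 in WT and 59.5 in KO, higher in KO there too. The neutrophil genes S100a8 and S100a9 were at 11.3 in WT and 40.7 in KO and at 28.5 in WT and 57 in KO, and in T cells S100a9 was at 11.6 in WT and 43.9 in KO. The dendritic and myeloid receptor Sirpa was at 8.07 in WT and 21.9 in KO. Sirpa had a log2 ratio of 0.50 in the reduced set, short of 1.5-fold, S100a8 was at 3.42 in WT and 11.3 in KO, S100a9 at 3.42 in WT and 16.8 in KO and Defa24 at 1.71 in WT and 89.9 in KO there. Single cells held 61.9% and 52.8% of the WT UMIs of S100a8 and S100a9 and 37.5% of the KO UMIs of Defa24. Over whole marker lists, the summed level of the 14 Paneth and goblet cell markers was 7.54 in WT and 187 in KO, with 2 of them at 0 in both libraries, that of the 9 neutrophil markers 99.6 in WT and 207 in KO and that of the 9 conventional dendritic cell markers 453 in WT and 549 in KO. How far these transcripts bear on the members' own values was not tested beyond the reduced set.

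**Figure D2:**
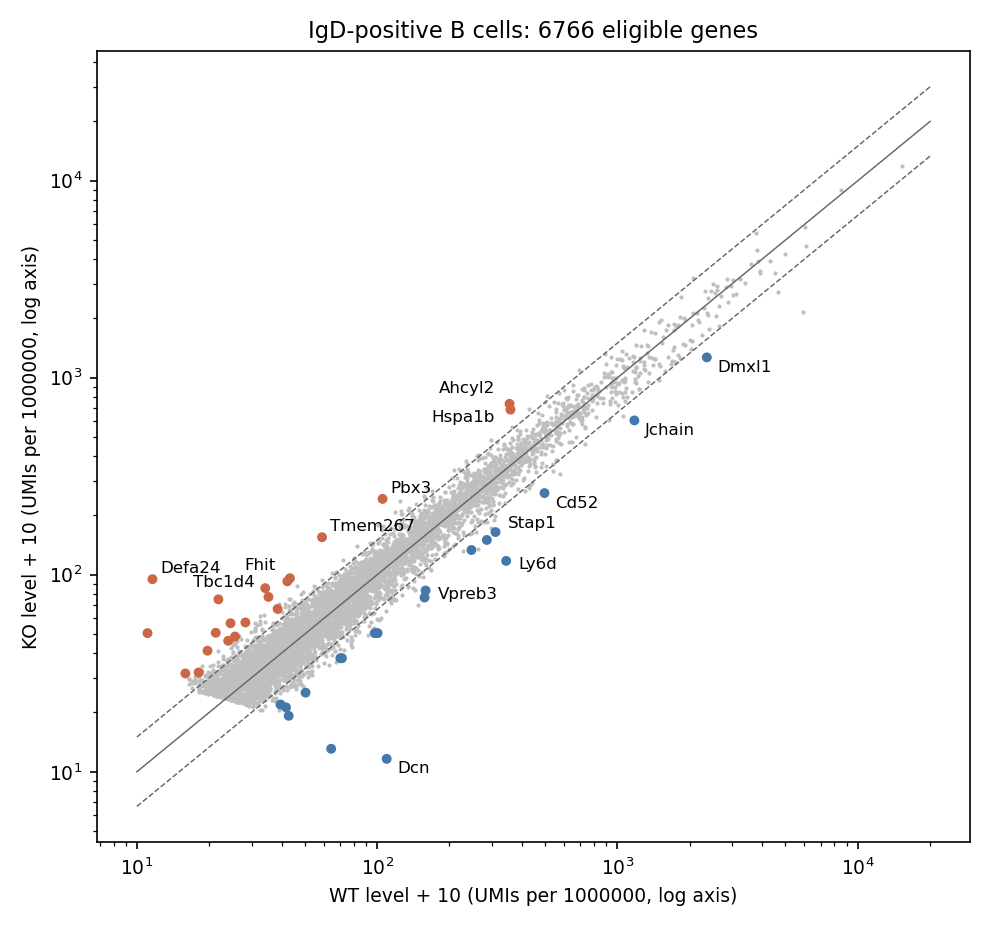
Level in WT (x) and in KO (y) of each gene that passed the filter, in UMIs per 1000000 plus 10 on log axes, with the line of equality and dashed lines at 1.5-fold. Colored points are the genes named among the highest and lowest, such as Ly6d and Dmxl1 below the lines and Pbx3 and Ahcyl2 above them.

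B cell identity genes were mostly lower in KO. All 18 listed genes outside the rule passed the filter, and their median log2 ratio was -0.46, against 0.05 over all genes. The median in the reduced set was -0.43. Ly6d, H2-DMb2, Cd79a and Cr2 were past 1.5-fold lower and none past 1.5-fold higher. Cd79a, the alpha signalling chain of the antigen receptor, was at 531 in WT (498 to 565) and 327 in KO (312 to 342). Its partner Cd79b (chromosome 11, 106311341 to 106314762) went the other way and was at 114 in WT (99.3 to 131) and 170.2 in KO (159.5 to 181), which was 1.49-fold higher in KO (1.28 to 1.74) with a log2 ratio of 0.54, just short of the size used here. Cd79b was the single gene of the 18 above 0. In IgD-negative cells of the stricter definition Cd79b was at -0.12 and Cd79a at -0.81, and in those of the same rule at 0.17 and -0.46. Cr2, the complement receptor CD21 that lowers the threshold of B cell activation, was at 139 in WT (122 to 157) and 88.2 in KO (80.5 to 96.4). Cd22 and Siglecg, inhibitory lectins, were at 72.1 in WT and 46.9 in KO and at 40.4 in WT and 24.1 in KO.

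**Figure D3:**
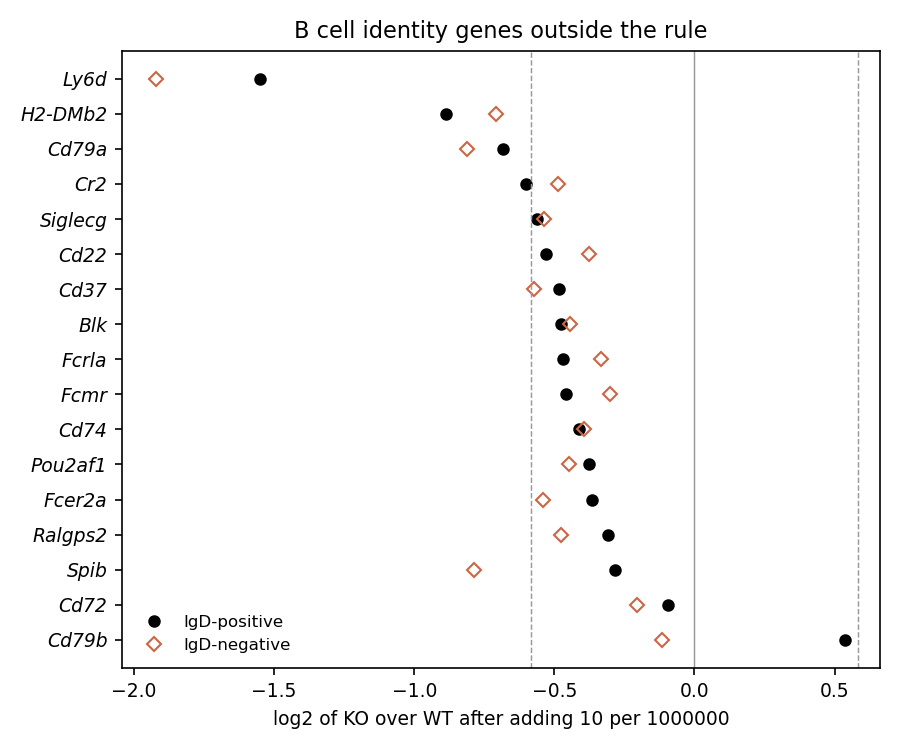
Log2 ratio of KO over WT after adding 10 per 1000000 for 17 B cell identity genes, in IgD-positive cells (filled) and in IgD-negative cells of the stricter definition (open). Dashed lines mark 1.5-fold, and Cd79b at 0.54 is the single filled point to the right of 0.

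Genes of the antigen receptor pathway were spread around 0. Of 22 genes, all passed the filter, 2 were past 1.5-fold lower and none higher, and the median was -0.01. Besides Cd79a the lower gene was Rasgrp3, an activator of RAS downstream of the receptor, at 247 in WT (225 to 271) and 155 in KO (145 to 166). Pik3ap1, the adaptor BCAP upstream of PI3 kinase, was at 494 in WT and 344 in KO, and Lyn, the kinase that starts signalling, at 1402 in WT and 1157 in KO. Syk, the kinase recruited next, was at 291 in WT and 366 in KO, Blnk, the adaptor it phosphorylates, at 716 in WT and 879.8 in KO, and Btk, the kinase that activates PLC gamma, at 159.9 in WT and 186 in KO. These 3 lay above 0, with log2 ratios of 0.32, 0.29 and 0.21, all under 1.5-fold. Malt1 and Bcl10, parts of a complex that passes the signal to NF-kB, had log2 ratios of 0.03 and 0.04.

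Transcription factors of the B lineage were close to equal. All 29 outside the rule passed the filter, with a median of -0.10. The single gene past 1.5-fold was Klf2, which keeps lymphocytes quiescent and circulating, at 403 in WT (374 to 433) and 255 in KO (241 to 268). Mef2c, a factor of B cell survival on receptor signalling, was at 1722 in WT (1663 to 1783) and 1194 in KO (1165 to 1223), a log2 ratio of -0.52. Foxp1, which holds mature follicular cells at rest, was at 4985 in WT and 4219 in KO, and Bach2, which restrains plasma cell fate, at 2968 in WT and 2899 in KO. Irf4, needed for class switching and plasma cells, had a log2 ratio of 0.24, and Prdm1, the plasma cell repressor, 0.07. Runx3 was highest at 0.52.

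Of 16 follicular B cell genes, all passed, with a median of -0.26. Vpreb3 and Klf2 were past 1.5-fold lower. Fcer2a, the low-affinity IgE receptor CD23 of follicular cells, was at 74.8 in WT (62.9 to 88.3) and 55.8 in KO (49.7 to 62.4). Cxcr5, the receptor that brings B cells into follicles, was at 79.1 in WT and 69 in KO. The median over 11 of 15 marginal zone genes was -0.08, with Cr2 the single one past 1.5-fold, and Cd9 highest at 0.55. Of the 13 B-1 cell genes 9 passed, with a median of -0.11, and Plscr1, at 34.4 in WT and 17.2 in KO, and Il5ra, the IL-5 receptor chain, at 37.1 in WT and 21.2 in KO, were past 1.5-fold lower. Of the 14 transitional B cell genes 6 passed (median -0.18) and of the 16 germinal centre genes 5 (median -0.33). Of the 12 memory B cell genes 11 passed, with a median of 0.03. Ccr6 was past 1.5-fold lower there and Vim higher, at 0.72 over all members and 0.21 in the reduced set.

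To compare detection, cells were first thinned at random to 1000 UMIs each. The share of members with a UMI is set beside that of T cells, taken as the background of free RNA. How much of the T cell share is free RNA was not tested. Unthinned members had medians of 3670 and 3827 UMIs, T cells 4443 and 4651, and 2 WT and 3 KO members were below 1000 UMIs and left out. Ighm, the IgM heavy chain, was found in 58.4% in WT (53.7 to 63) and 40.0% in KO (37.2 to 42.8), far above T cells at 2.85% in WT and 2.15% in KO. Cd79a was found in 40.7% in WT (36.1 to 45.4) and 28.7% in KO (26.2 to 31.4), against 1.68% in WT and 0.496% in KO of T cells. Cr2 was found in 13.2% in WT (10.2 to 16.7) and 8.25% in KO (6.74 to 9.97), and Fcer2a in 6.04% in WT (4.02 to 8.67) and 6.63% in KO (5.28 to 8.21), with Fcer2a in no thinned T cell. Unthinned, Ighm was found in 89.3% (WT) and 78.8% (KO) of members, Cd79a in 80.4% (WT) and 70.7% (KO), Cr2 in 33.6% (WT) and 26% (KO) and Fcer2a in 21.8% (WT) and 20.1% (KO). Cd93, a marker of transitional cells, was found in 2.91% in WT (1.56 to 4.92) and 2.21% in KO (1.45 to 3.22). Ccr7, which guides lymphocytes to the T cell zone, was found in 34.2% in WT (29.8 to 38.8) and 30.8% in KO (28.2 to 33.5), Cd83 in 31.5% in WT (27.3 to 36.1) and 32.2% in KO (29.6 to 35) and the costimulatory ligand Cd86 in 50.3% in WT (45.6 to 55.1) and 51.1% in KO (48.2 to 54). Cxcr4, a chemokine receptor, was higher in KO, at 26.0% in WT (21.9 to 30.3) and 33.4% in KO (30.7 to 36.2). For Fcer2a, Cd93, Ccr7, Cd83 and Cd86 the intervals of the libraries overlapped, and for Ighm, Cd79a, Cr2 and Cxcr4 they did not. The intervals cover counting error only, and cells are not replicates of a genotype.

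Mki67, a marker of dividing cells, was found in 5 of 449 unthinned WT members (1.11%) and in 25 of 1179 KO members (2.12%), against 9.59% and 4.13% of T cells. Thinned to 1000 UMIs it was found in 0 of 447 WT members, which allows up to 0.671% of cells with a UMI at that depth only, and in 0.68% of 1176 KO members. Igha, the IgA heavy chain, was found in 96.9% in WT (94.8 to 98.3) and 91.9% in KO (90.2 to 93.4), but also in 98.2% in WT and 93.2% in KO of T cells. Jchain was found in 61.5% in WT (56.8 to 66.1) and 43.8% in KO (40.9 to 46.7) against 60.8% in WT and 42.5% in KO of T cells. For both transcripts the intervals of members and T cells overlapped in each library, and their source in the members was not tested. Igkc, the kappa constant region, was found in 98.7% in WT (97.1 to 99.5) and 87.8% in KO (85.7 to 89.6) against 97% in WT and 82% in KO of T cells. The Igkc intervals of members and T cells overlapped in WT and did not in KO, where the share in members was higher. For Iglc2, a lambda constant region, the members stood above T cells, at 22.8% in WT (19 to 27) and 12.3% in KO (10.5 to 14.3) against 3.89% in WT and 2.64% in KO. A member was assigned to kappa or lambda where one class had at least 3 UMIs and 5 times the other. By this rule 0 of 449 WT and 0 of 1179 KO members were lambda, 83.5% and 72.9% kappa and the rest neither. Members had a median of 17 Igkc UMIs in WT and 8 in KO, and T cells 16 and 8, so the kappa calls are not read as light chain use. Heavy chain variable segments could be assigned in 1 WT and 4 KO members.

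**Figure D4:**
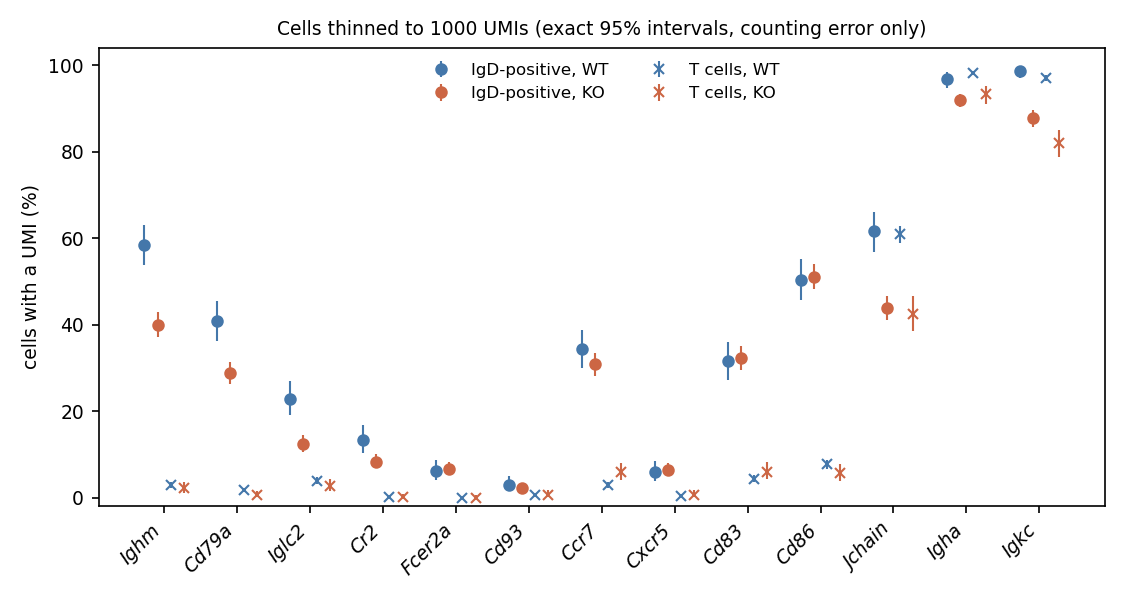
Share of cells with a UMI (y axis, percent) for 13 genes after thinning each cell to 1000 UMIs, in IgD-positive B cells (circles) and T cells (crosses) of WT and KO, with exact 95% intervals. Ighm, Cd79a and Cr2 are lower in KO, and Jchain and Igha overlap with T cells, as does Igkc in WT but not in KO.

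Among the 12 immunoglobulin constant genes outside the rule, 7 passed the filter, 5 were past 1.5-fold lower and 1 higher, and the median was -0.76. Ighm was at 912 in WT (869 to 956) and 597 in KO (577 to 617), 1.53-fold lower in KO (1.44 to 1.62). Iglc2 was at 252 in WT (230.1 to 276) and 125 in KO (115 to 134). Igkc was at 5916 in WT and 2154 in KO, with 24.7% of its WT UMIs in 1 cell, and in T cells at 8590.4 in WT and 2872 in KO. Igha was at 4626 in WT and 2726 in KO, and in T cells at 7553 in WT and 3785 in KO. The Igkc and Igha log2 ratios in T cells were -1.58 and -0.99, against -1.45 and -0.76 in the members. With no limit on plasma cell genes in T cells, their summed levels are not like for like with those of the members. Ighg2b was the higher gene, at 15.1 in WT and 36 in KO, with 48.7 in WT and 39.2 in KO in T cells. The WT T cell level came from 724 UMIs in 183 of 2679 cells. Thinned to 1000 UMIs, Ighg2b was found in 1.57% (WT) and 3.15% (KO) of members. Its shares in T cells were 0.973% (WT) and 2.64% (KO), also higher in KO.

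Receptors of homing leaned lower in the members. Of the 20 of 27 genes that passed, 2 were past 1.5-fold lower and none higher, with a median of -0.18. Over all genes that passed, 2.10% were lower and 2.51% higher. The median of the same homing genes was 0.19 in all IgD-negative B cells and -0.02 in those of the stricter definition. Ccr6, the receptor for CCL20 that draws B cells under the epithelium of Peyer's patches, was at 53.3 in WT (43.3 to 64.9) and 24.6 in KO (20.7 to 29.1), 2.16-fold lower in KO (1.65 to 2.82). Gpr183, the oxysterol receptor EBI2 that places B cells at the outer follicle, was at 134 in WT (118 to 152) and 74.1 in KO (67.1 to 81.6), 1.81-fold lower in KO (1.54 to 2.12). Ccr7 was at 402 in WT and 437 in KO, and Cxcr4 at 336 in WT and 426 in KO. S1pr1, the receptor for exit from lymphoid tissue, was at 229 in WT and 199 in KO, and Itga4, a chain of the gut homing integrin, at 265 in WT and 264 in KO. Itgb7, its partner chain, was at 20.5 in WT and 16.3 in KO.

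Of 16 of 25 BAFF, TNF and cytokine receptor genes that passed, the median was 0.08. Tnfrsf13c, the BAFF receptor of resting B cells, was at 53.8 in WT (43.8 to 65.5) and 73.2 in KO (66.2 to 80.7), a log2 ratio of 0.38, and Tnfrsf13b, its relative TACI, at 48.4 in WT and 41.8 in KO. Cd40 was at 51.7 in WT and 62.8 in KO. Tgfbr1, a chain of the TGF-beta receptor, was past 1.5-fold higher, at 136 in WT (119 to 153) and 218 in KO (205 to 230.2). Ltb, the lymphotoxin chain that maintains follicles, was past 1.5-fold lower, at 57.1 in WT (46.7 to 69) and 30.8 in KO (26.3 to 35.8). In the reduced set the log2 ratios were 0.72 for Tgfbr1 and -0.77 for Ltb.

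Genes of class II presentation had a median of -0.24, with all 19 past the filter, 2 past 1.5-fold lower and none higher. H2-DMb2 and March1, a ubiquitin ligase that removes class II molecules from the surface, were the lower genes, with March1 at 104 in WT (89.7 to 119.6) and 62.1 in KO (55.7 to 69.1). Cd74, the invariant chain, was at 4528 in WT and 3399.5 in KO, H2-Eb1 at 1493 in WT and 1139 in KO and H2-Ab1 at 1071 in WT and 876 in KO. H2-Aa, which encodes the alpha chain that pairs with H2-Ab1, was at 1900.0 in WT and 1953 in KO, a log2 ratio of 0.04. Lgmn, an endosomal protease, was highest at 0.58. The median over 20 of 21 class I genes was -0.12 and over 13 of 23 interferon gamma response genes -0.28.

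Activation genes did not lean one way. Of the 29 of 30 that passed, 1 was past 1.5-fold lower and 1 higher, with a median of -0.00. Egr1, an immediate early factor of antigen receptor signalling, was at 722 in WT (684 to 762) and 451 in KO (433 to 469), and Dusp1, a phosphatase that ends MAP kinase signals, at 304 in WT (279.5 to 330.2) and 465 in KO (447 to 483). Egr3 was at 331 in WT and 222 in KO, Nr4a1, a reporter of receptor signalling, at 619.5 in WT and 612 in KO, Junb at 1282 in WT and 1733 in KO and Cd69 at 411 in WT and 367 in KO. NF-kB genes leaned higher, with a median of 0.24 over all 23 and 0.16 in the reduced set. Nfkbia, the inhibitor IkB alpha, was at 353 in WT (326 to 381) and 552 in KO (533 to 572), and Map3k14, the kinase NIK of the alternative pathway, at 44.7 in WT (35.6 to 55.4) and 77.3 in KO (70.2 to 85). With Tnfaip2 these were the 3 past 1.5-fold higher, but in the reduced set all 3 were short of it, at 0.57, 0.53 and 0.26.

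Target genes of p53 were detected in both irradiated libraries, and none reached 1.5-fold after adding 10 per 1000000. Of 32 listed genes 20 passed the filter, with a median of 0.18 and 0.09 in the reduced set. Cdkn1a, the cell cycle inhibitor p21, was at 66.7 in WT (55.5 to 79.6) and 101 in KO (93 to 110.0), and its log2 ratio was 0.54 over all members and 0.27 in the reduced set. Mdm2, the ligase that limits p53, was at 147 in WT (130.0 to 165) and 199 in KO (187 to 211). Bbc3, which encodes the killer protein PUMA, was at 12.9 in WT and 23.5 in KO, and Bax, a pore-forming relative, at 75.4 in WT and 59 in KO. Without the addition Bbc3 was 1.82-fold higher in KO (1.17 to 2.95) and Cdkn1a 1.52-fold higher in KO (1.25 to 1.86). Trp53inp1 was lowest at -0.50. In the survival list, where 18 of 24 genes passed (median 0.08), Bcl2 was at 166 in WT and 131 in KO, Mcl1 at 446 in WT and 472 in KO and Bcl2l11, which encodes BIM, at 439 in WT and 461 in KO. Pim1, a survival kinase, was the single one past 1.5-fold, at 418 in WT (389 to 449) and 684 in KO (662 to 706). With no unirradiated cells, how far irradiation moved these genes cannot be told.

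Heat shock chaperones were the list with the most members past 1.5-fold higher. Of 20 listed genes 19 passed, 4 were higher and none lower, and the median was 0.24. Over all genes that passed, 2.51% were higher and 2.10% lower. Hspa1b and Hspa1a encode near-identical inducible HSP70 proteins, so counting can split their reads. Hspa1b was 1.95-fold higher in KO (1.79 to 2.12) and Hspa1a, at 152 in WT (135 to 171) and 267 in KO (253 to 281), 1.76-fold higher in KO (1.55 to 2.0). Hsph1, the nucleotide exchange partner HSP110, was at 115 in WT (99.8 to 131) and 226 in KO (214 to 239), 1.97-fold higher in KO (1.7 to 2.29). Dnaja1, an HSP40 cochaperone, was at 198 in WT (178 to 219) and 331 in KO (316 to 347), 1.67-fold higher in KO (1.49 to 1.87). The constitutive Hspa8 was at 511 in WT and 530.1 in KO and Hsp90ab1 at 1073 in WT and 1308 in KO. In T cells of the same libraries the log2 ratios were 1.83 for Hspa1b, 1.70 for Hspa1a, 1.28 for Hsph1 and 0.70 for Dnaja1, the same direction as in the members.

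The 4 higher chaperone genes are shown with the match to a heat shock element core, in capitals, that lies before their start sites (RefSeq, GRCm38.p6). The core was searched as GAANNTTC or TTCNNGAA, each of which reads the same on both strands, in the 250 bases before each start, and the 2 patterns can overlap. Such a match was found in 12.8% of all 32851 windows and in 9 of the 16 listed chaperone genes with a window. A gene counted if any of its windows held a match, so the 2 shares are not like for like. Hspa1b and Hspa1a share the printed bases exactly, 104 bases before the start in both.
Hspa1b, chr17:34959310-34959367, minus strand: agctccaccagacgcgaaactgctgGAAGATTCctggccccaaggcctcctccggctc
Hspa1a, chr17:34972228-34972285, minus strand: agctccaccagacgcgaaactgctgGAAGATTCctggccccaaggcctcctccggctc
Hsph1, chr5:149636337-149636394, minus strand: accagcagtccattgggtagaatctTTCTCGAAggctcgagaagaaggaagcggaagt
Dnaja1, chr4:40722319-40722376, plus strand: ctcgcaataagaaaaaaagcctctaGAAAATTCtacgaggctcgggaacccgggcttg

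The match lay 33 or 54 bases before the starts listed for Hsph1 and 124 before that of Dnaja1. Matches were also found at Hspd1 and Hspe1, mitochondrial chaperones with log2 ratios of 0.05 and -0.09, and at Fkbp4, at -0.43. Dnajb4 and Hspb1 had a match too, and their ratios are not reported here. Hspd1 and Hspe1 share the same matched bases, read on opposite strands. A match was therefore present at chaperone genes on both sides of 0.

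The medians of the remaining lists are given for reference. The 84 of 93 ribosomal protein genes that passed had a median of -0.15 and the 79 of 102 nuclear respiratory chain genes -0.20. The 13 of 16 antibody secretion genes had -0.26, with Jchain and Pdia4, an endoplasmic reticulum disulfide isomerase at 68.9 in WT and 32.8 in KO, past 1.5-fold lower. Type I interferon response genes had -0.05 over 19 of 42, DNA damage repair genes -0.06 over 14 of 26, cell cycle genes 0.07 over 14 of 28 and toll-like receptor genes 0.01 over 13 of 21. The ER stress list had -0.07, inhibitory receptors -0.23, glycolysis and hypoxia genes 0.05, and actin, S100 and galectin genes -0.01. Mitochondrial transcripts, whose share the filter on cells capped, had 0.29.

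**Figure D5:**
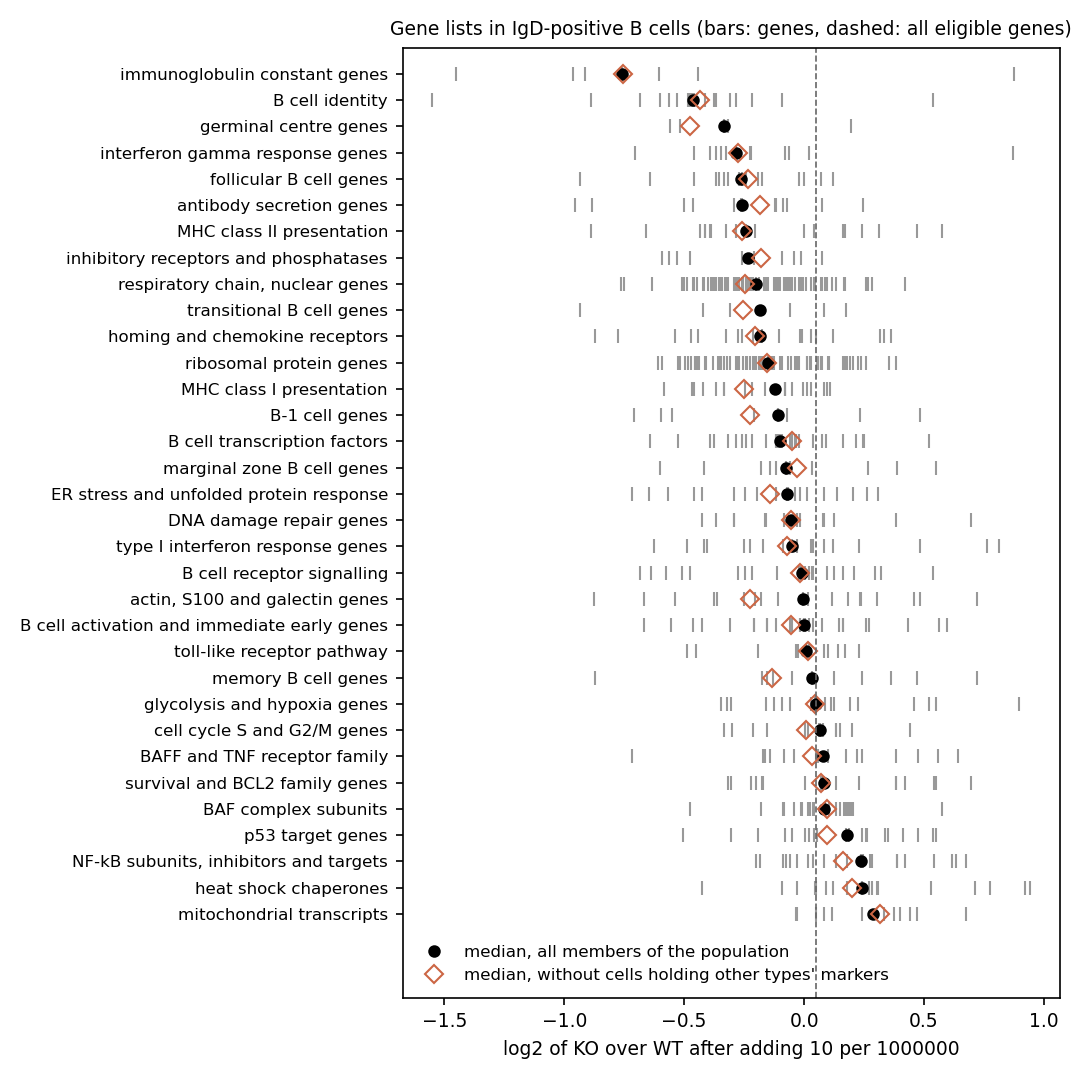
Log2 ratio of KO over WT after adding 10 per 1000000 (x axis) for each gene list with at least 5 genes past the filter, with single genes as grey bars, list medians over all members as black dots and over the reduced set as open diamonds. The dashed line is the median of all genes at 0.05, with immunoglobulin constant and B cell identity genes at the lower end and heat shock and mitochondrial genes at the upper end.

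IgD-negative B cells of the same libraries are described beside the members, with no test, since Ighd divided them. They number 692 in WT and 1596 in KO. In WT 76 of the 692 held at least 3 stromal UMIs, against 3 of the 449 members, so a stricter IgD-negative set was used, with a UMI of Pax5, Ms4a1 or Bank1 and under 3 stromal UMIs. This left out 151 WT and 155 KO cells and was chosen after the data had been seen. Before it, 59 genes were at least 1.5-fold lower in members than in IgD-negative cells in both libraries and 2, Ighd and Ly6d, higher. With it, 8 of the 59 and Ighd were left. The 8 were Ifitm3, Emp1, Dock4, Tmtc2, Hnrnpll, Cst3, Csf2rb and Tox. The stricter set had no limit on dendritic cell or neutrophil markers. Of all IgD-negative cells, 24 in WT and 56 in KO held at least 3 dendritic cell marker UMIs, against 4 and 38 members. The part of such cells in the 8 genes was not tested. The log2 ratio of KO over WT had a median over B cell identity genes of -0.46 in the members, -0.19 in all IgD-negative cells and -0.48 in the stricter set. Over chaperones these medians were 0.24, 0.11 and 0.25. Of the 15 highest genes of the members 6 were past 1.5-fold in all IgD-negative cells and 12 in the stricter set. The share of all genes past that size is not given for either. Hspa1b was at 0.02 and 1.13 in these sets, Fhit at -0.02 and 0.70 and Bcorl1 at -0.03 and 0.10. The values in IgD-negative cells thus depended on which of the definitions was used.

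Variation among the members was measured after thinning, as the variance over the mean. It was highest for Cxcl2, a neutrophil chemokine, in WT (6.27, against 3.02 in KO), followed by Jchain, Alcam, Ccl4, mt-Rnr2 and Hspa1b. In KO it was highest for Gm26917 (11.9, against 1.49 in WT) and Tmem267 (6.72, against 1.41), followed by Jchain and Hspa1b (4.35, against 3.63 in WT). A value of 1 is what independent counting of equal cells gives. In WT, Cxcl2 was at 1700 in the fifth cluster below, where Scrublet marked 52 of 80 cells, and at 61.3 in the other members. The 38 KO members with dendritic cell markers held 45.4% of the KO UMIs of Tmem267. A single WT cell held 22.6% of the WT UMIs of Jchain. The part of doublets and single cells in this variation was not tested.

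Joint clustering of the members, without rule genes, immunoglobulin segments, sex-linked and mitochondrial genes and genes 1.5-fold apart between the libraries, gave 5 clusters at resolution 0.5. They are kept by number, since their leading genes named no B cell subset. The first (109 WT and 529 KO cells) was led by Zfand4, Dnah17, Dlg4, Washc2 and Pak1, with Egr1 among its first 8 genes. The second (167 and 192) was led by an unnamed gene model, Pde3b, Patj, Dmxl1 and Pde7b, and the third (70 and 288, median 5289 UMIs) by Tuba1b, Gars, Tent5c, Glrx5 and Txn1, with Tnfrsf13b among its first 8. The fourth (86 and 107, median 2908 UMIs) was led by Arrdc3, Zfp53, Trim5 and March1. The fifth (17 and 63, median 8355 UMIs) was led by Tbc1d4, Ptgs2, Slc7a11, Tmtc2 and Fmnl2. Of its 80 cells Scrublet marked 52 as doublets, out of 62 marked among all members, and 24 held at least 3 dendritic cell marker UMIs. The first cluster held 24.3% of WT (20.4 to 28.5) and 44.9% of KO members (42.0 to 47.8), and the second 37.2% (32.7 to 41.8) and 16.3% (14.2 to 18.5). With 1 library per genotype, a cluster weighted to 1 library may reflect that library.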

How the data were processed

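The deposited files hold raw counts: UMIs per gene and barcode. The authors made them with Cell Ranger 7.0.0, as the headers record (per the file headers), and mapped to GRCm38, per the submitters' processing notes. Their gene annotation and any counting of introns are facts not given in the sources used here. Positions come from GENCODE M21, which held 99.9% of the 54838 gene IDs.

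Barcodes with at least 500 UMIs, 200 genes and at most 20% mitochondrial UMIs were kept. The WT file held 10958 barcodes and 64786549 UMIs, the KO file 8794 and 49590755. Members were found by the rule in raw counts and summed per library (Python 3.11.15, numpy 2.4.6, scipy 1.17.1). Levels have exact Poisson, ratios conditional binomial and shares Clopper-Pearson intervals of 95%, and a count of 0 allows 3 counts. UMIs limit counting error only. Clusters used scanpy 1.11.5 and leidenalg 0.10.2 on 1500 variable genes, 20 components and 15 neighbours. Scrublet ran per library with default settings and removed no member from the main values. Ratios and intervals were run on simulated independent counts. Several genes vary more among the members than such counts do, so this cannot show how well the intervals hold for the members.

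Genes were named by rule: Dpf2, the 5 markers, the 15 eligible genes highest and lowest in log2 ratio (without rule genes, segments, sex-linked, mitochondrial, unnamed genes and markers of other types, of which up to 6 each way were named apart), members of the B cell lists and leading or most variable genes. Genes of other lists were named as highest, lowest or most abundant, and a few others after their values were seen. The members, the 33 gene lists and the 14 marker lists were chosen with earlier results of these data known. Alternatives changed the doublet, IgD, B cell gene, depth and sex-linked limits, the added constant, filter, scaling, averaging, fold, thinning and clustering. 4 more were added after the data were seen. A few listed genes count in their lists' totals and are not reported here by name.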

Additional observations from a re-analysis of the deposited data

Results flagged for a closer look

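Fmnl2, a formin that builds actin filaments, had a log2 ratio of KO over WT of 1.13 in IgD-positive B cells and -0.77 in IgD-negative B cells of the same rule, which are opposite directions. The difference between the 2 was not tested. In the stricter IgD-negative set, with under 3 stromal UMIs and a UMI of Pax5, Ms4a1 or Bank1, Fmnl2 was at 0.80, the same direction as in the members. In the reduced set of members it was at 0.59, and 50.9% of its KO UMIs lay in members with at least 3 dendritic cell marker UMIs.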

How the results depend on the processing

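No paired analysis was possible because each genotype has 1 library. For the same reason no replicate could be left out. The share ratio of 3.30 ranged from 3.02 to 3.53 over its 8 alternatives. Neither this ratio nor any named gene past 1.5-fold changed direction. The counts of 170 higher and 142 lower genes became 385 and 280 with 1 per 1000000 added, 23 and 25 with 50 added, 52 and 55 with a filter of 400 UMIs and 20% of members, and 14 and 7 at 2-fold. Without a filter the lower count was 255. The other counts stayed within 1.5 times. Without members holding other types' markers, 139 and 149 genes were called among those then past the filter. Dpf2 was at a ratio of 0.894 in Y-linked-only members. The immunoglobulin constant median of -0.76 became -1.32 with Ighd at 3 or more UMIs (64 WT and 170 KO members), -0.52 in Y-linked-only members, -0.57 with 50 added and -0.44 without a filter. The mitochondrial median of 0.29 became 0.51 with Ighd at 3 or more UMIs. Over the alternatives the interferon gamma median of -0.28 ranged from -0.54 to -0.13, the germinal centre median from -0.59 to -0.18, that of antibody secretion from -0.30 to -0.09 and that of B cell identity from -0.51 to -0.29. The memory median of 0.03 was -0.13 in the reduced set. Clustering gave 3 clusters at resolution 0.3 and 11 at 1.0. Of the genes named among the 15 highest, Tbc1d4, Tmtc2, Fmnl2, Cxcl16, Arl4c and Ifi207 fell short of 1.5-fold in cells of 2000 to 8000 UMIs. Over all alternatives, 35 of 480 values of the named genes fell short of 1.5-fold, 11 of 541 list medians moved beyond counting error, and 4 of 42 ratios of detection shares did so (Ighm, Igkc, Cd79a and Jchain, unthinned). Why values moved was not tested. Depth per cell limits what 1 Ighd UMI shows: B cells without one may still make IgD.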

Other observations

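Single genes of further lists are described here, and they were picked after their values were seen. Of 19 type I interferon response genes that passed the filter, 2 were past 1.5-fold higher in KO and 1 lower, with a median of -0.05. Oasl1 and Oasl2, relatives of the viral RNA sensors of the OAS family, were at 32.8 in WT (25.1 to 42.2) and 65.2 in KO (58.6 to 72.3) and at 6.46 in WT and 17.9 in KO, and Ly6e, an interferon-inducible surface protein, was at 298 in WT (274 to 324) and 189.6 in KO (178 to 201). In the interferon gamma list of 13 genes the median was -0.28, with Cxcl10, a chemokine for T cells, past 1.5-fold higher at 29.1 in WT and 61.4 in KO and Irf1, a transcription factor, past 1.5-fold lower at 297 in WT (273 to 323) and 179 in KO (168 to 190.1). Nhej1, a factor of DNA end joining, was the single repair gene of 14 past 1.5-fold, at 18.8 in WT (13.1 to 26.2) and 36.8 in KO (31.9 to 42.2). Hk2, an inducible hexokinase, was the single one of 19 glycolysis and hypoxia genes, at 23.7 in WT (17.2 to 31.8) and 52.7 in KO (46.8 to 59.1). Without the members that held other types' markers the log2 ratios were 0.75 for Oasl1, 0.77 for Oasl2, 0.76 for Nhej1, 0.79 for Hk2 and 0.63 for Cxcl10.

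Of 19 genes of endoplasmic reticulum stress, 2 were past 1.5-fold lower in KO and none higher, with a median of -0.07. They were Manf, a secreted stress factor, at 131 in WT (115 to 148) and 75.5 in KO (68.4 to 83.1), and Hsp90b1, the HSP90 of the reticulum, at 419.8 in WT (391 to 450.3) and 264 in KO (251 to 278). The chaperone Hspa5 was at 918 in WT and 748 in KO and Ern1, the sensor IRE1, at 137 in WT and 172 in KO. Btla, an inhibitory receptor of lymphocytes, was at 234 in WT (212 to 257) and 152 in KO (141 to 162). S100a10, which forms a complex with annexin A2, was at 81.3 in WT (68.8 to 95.3) and 39.7 in KO (34.6 to 45.3), and Vim, the intermediate filament vimentin, at 61.9 in WT and 108 in KO. No explanation was tested for any of these values.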
